A study of Mus musculus with 8 samples.

Results

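The transcripts described here are those of 10 genes that intestinal absorptive cells express: Fabp1, Fabp2, Apoa1, Apoa4, Mttp, Lct, Sis, Alpi, Vil1 and Epcam. They were picked by gene symbol, and they are 10 of the 52661 genes and 20 of the 133618 transcripts in the tables. Their levels were measured in RNA of intraepithelial lymphocytes from C57BL/6 mice, which are immune cells lodged among the epithelial cells of the gut lining. The cells had been sorted by flow cytometry on CD45, a surface protein of leukocytes, and kept for 24 h at 37 °C in RPMI with 10% serum. In the osteopontin group (4 libraries) the medium held osteopontin, described in the study's design as recombinant, at 2 µg/ml; in the null group (4 libraries) it held none. Libraries carry the names 1, 2, A and B in both groups. The labels name no stretch of intestine, no age or sex of the mice and no separate animals or cultures. A p-value here therefore refers to the spread among libraries, part of which may be technical. In RNA from a whole cell preparation, fewer cells of a type and less RNA per cell cannot be told apart.

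Enterocytes, the absorptive cells of the small intestine, take up fatty acids, bind them to small cytosolic carrier proteins, rebuild them into triglyceride and export them with apolipoproteins as chylomicrons. Their apical face is a brush border of microvilli that carries the enzymes for the last steps of sugar and peptide digestion. Intraepithelial lymphocytes lie against these cells, and an isolation of the lymphocytes starts from a suspension that holds both. The transcripts above are textbook products of the enterocyte, with the exception of Epcam, an adhesion molecule of epithelia in general that has also been described on mouse intraepithelial T cells.

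The libraries held 49108969 to 71399847 estimated reads, and 3 reads corresponded to 0.0420 to 0.0611 CPM (reads of a gene scaled to a common library size). The transcripts of the sorted cells were abundant: Ptprc, which encodes CD45, stood at 786 to 883 TPM (a level corrected for transcript length and scaled to a common sum) with osteopontin and at 705 to 814 TPM without. Igha, a gene of plasma cells, stood higher, at a mean of 6335 TPM with osteopontin and 6399 TPM without. The summed level of 15 T cell and intraepithelial lymphocyte genes was 7834 to 8547 CPM with osteopontin and 7574 to 8473 CPM without. The libraries named B of both groups stood apart in the genes described here, and together they held 22.7% of all estimated reads.

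The 10 genes fell into very unequal levels. Mean TPM over the 8 libraries was highest for Epcam, at 32.1, followed by Fabp2 at 8.19, Fabp1 at 4.26 and Apoa1 at 3.19. Below them came Apoa4 at 1.59, Mttp at 1.17, Vil1 at 0.845 and Lct at 0.408, and Sis and Alpi stood last at 0.0940 and 0.0670. Epcam lay above Fabp2 in 8 of 8 libraries, and its range of 29.1 to 39.0 TPM did not touch that of Fabp2, 1.66 to 26.8 TPM. Fabp2 lay above Fabp1 in 8 of 8 libraries, although their ranges overlapped. The other neighbours in this order changed places between libraries: Fabp1 lay above Apoa1 in 6 of 8, Apoa1 above Apoa4 in 4, Apoa4 above Mttp in 2, Mttp above Vil1 in 7, Vil1 above Lct in 4, Lct above Sis in 6 and Sis above Alpi in 3. By median TPM in place of the mean, 4 of the 10 genes kept their rank, and Mttp took rank 4 at 0.989 TPM and Apoa4 rank 8 at 0.125 TPM.

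**Figure D1:**
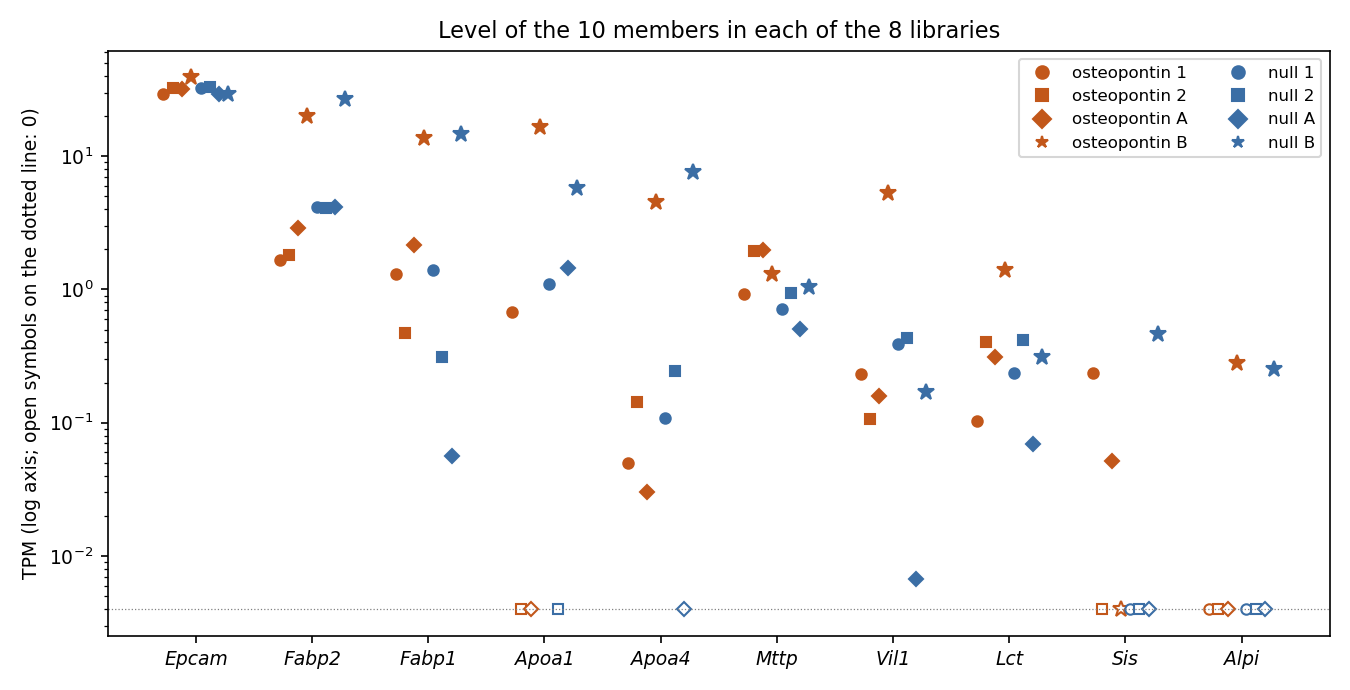
TPM of the 10 genes (log axis) in each of the 8 libraries, osteopontin in orange to the left of null in blue, with one symbol per library name; open symbols on the dotted line are values of 0. Epcam stays between 29.1 and 39.0 TPM in every library, while for Fabp2, Fabp1, Apoa1, Apoa4 and Alpi the stars of both B libraries lie above all other symbols.

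The fatty acid carriers came first among the 9 genes other than Epcam, and most of their reads were in the B libraries. Fabp2 encodes the intestinal fatty acid-binding protein. It had 62, 66, 91 and 507 reads in osteopontin libraries 1, 2, A and B, against 128, 143, 160 and 935 in null libraries 1, 2, A and B. Each B library was above all libraries named 1, 2 or A, and among those 6 the osteopontin libraries (0.871 to 1.56 CPM) lay below the null libraries (2.22 to 2.25 CPM). Those 6 libraries were set apart with the values in view. How many other genes separate in them was not counted, so no osteopontin effect is read from this split. With the B libraries included, at 10.3 CPM with osteopontin and 14.3 CPM without, the groups overlapped. The fitted log2 fold change was -0.62 (SE 1.07, 95% interval -3.15 to 1.90), with an adjusted p of 0.9999 in edgeR's quasi-likelihood test with Benjamini-Hochberg adjustment, and without both B libraries it was -0.98 at an adjusted p of 1.00. No gene passed an adjusted p of 0.05 in this fit (0.0% of 18631 tested genes called higher and 0.0% lower), so none of the genes below passed either.

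Fabp1, which encodes the fatty acid-binding protein shared by liver and proximal intestine, had 22, 8, 31 and 161 reads in osteopontin libraries 1, 2, A and B, against 20, 5, 1 and 234 in the null libraries of those names. The libraries B were again the highest of each group, at 3.27 CPM with osteopontin and 3.59 CPM without, and the other 6 stayed at or under 0.532 CPM. Its group means were 1.06 ± 1.49 CPM with osteopontin and 1.01 ± 1.73 CPM without (SD, n = 4 each), so that the spread within each group exceeded its mean. The fitted log2 fold change was 0.07 (SE 1.4, 95% interval -2.96 to 3.10).

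Apoa1 and Apoa4 encode apolipoproteins that enterocytes secrete with chylomicrons, and the genes lie close together on chromosome 9 (GRCm38, Apoa1 at chr9:46228580-46230466 and Apoa4 at chr9:46240696-46243459, both on the + strand). Apoa1 had 20, 0, 0 and 459 reads in osteopontin libraries 1, 2, A and B, against 37, 0, 61 and 219 in the null libraries of those names. Apoa4 had 4, 11, 2 and 241 reads in the osteopontin libraries, against 7, 18, 0 and 571 in the null libraries, in the same order of names. For both genes the B libraries were the highest of all 8, with the osteopontin B library above the null B library for Apoa1 and below it for Apoa4. Taking 3 reads as the floor of a library at 0, the highest level of Apoa1 was at least 212-fold higher than that of osteopontin library 2, and the highest level of Apoa4 at least 208-fold higher than that of null library A. Of the reads of Apoa4, 812 of 854 (95.1%) were in the B libraries, and of those of Apoa1, 678 of 796 (85.2%). Apoc3 and Apoa5, the other apolipoprotein genes of this cluster, were listed at 0 in all 8 libraries. Apob, which encodes the structural protein of the chylomicron, had 108 reads in osteopontin library B and was listed at 0 in the other 7.

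The fold changes of the apolipoprotein genes were poorly determined. Apoa1 had a fitted log2 fold change of 0.98 (SE 2.38, 95% interval -4.74 to 6.70), and without both B libraries it was -2.38. Apoa4 had one of -0.84 (SE 2.32, 95% interval -6.43 to 4.76). Leaving out osteopontin library B gave -3.65 for Apoa1 and -4.73 for Apoa4, and leaving out null library B gave 2.26 and 3.24, so the sign of both depended on which B library was in the fit.

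Mttp encodes the large subunit of the microsomal triglyceride transfer protein, which loads lipid onto nascent apolipoprotein B, and its reads had another distribution. It had 112, 241, 222 and 105 reads in osteopontin libraries 1, 2, A and B, against 91, 112, 78 and 87 in null libraries 1, 2, A and B. Its highest libraries were osteopontin 2 and A, at 3.55 and 3.81 CPM; the B libraries stood at 2.13 CPM with osteopontin and 1.33 CPM without. The groups overlapped, because osteopontin library 1 (1.573 CPM) lay just below null libraries 1 (1.576 CPM) and 2 (1.76 CPM). Mean levels were 2.77 ± 1.08 CPM with osteopontin and 1.44 ± 0.292 CPM without (SD, n = 4 each). The fitted log2 fold change was 0.94 (SE 0.51, 95% interval -0.15 to 2.03), with an unadjusted p of 0.0855 and an adjusted p of 0.9999 in edgeR's quasi-likelihood test with Benjamini-Hochberg adjustment. Leaving out any 1 library kept it between 0.75 and 1.13.

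The reads of Mttp were spread over 3 transcripts that begin at different places on the minus strand of chromosome 3. The protein-coding transcript ENSMUST00000098580.5, which starts at chr3:138143388 (GRCm38), held 51.6% of them, a retained-intron transcript that starts further upstream, ENSMUST00000197680.1, held 28.6%, and the longer protein-coding transcript ENSMUST00000029805.12, which starts at chr3:138131377, held 19.8%. For the most abundant of them Salmon assigned 0, 155, 181 and 36.6 reads in osteopontin libraries 1, 2, A and B, against 17.9, 92.5, 58.0 and 0 in the null libraries of those names. The high total in osteopontin libraries 2 and A lay mostly in that transcript, while in null library B all 87 reads were assigned to the retained-intron transcript. Counted over protein-coding transcripts, the mean level of Mttp was 0.697 TPM rather than 1.17 TPM. Mttp overlaps Trmt10a and Gm43691 on the other strand; the libraries were stranded per the labels, but whether the quantification used strand is not given in the sources used here.

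**Figure D2:**
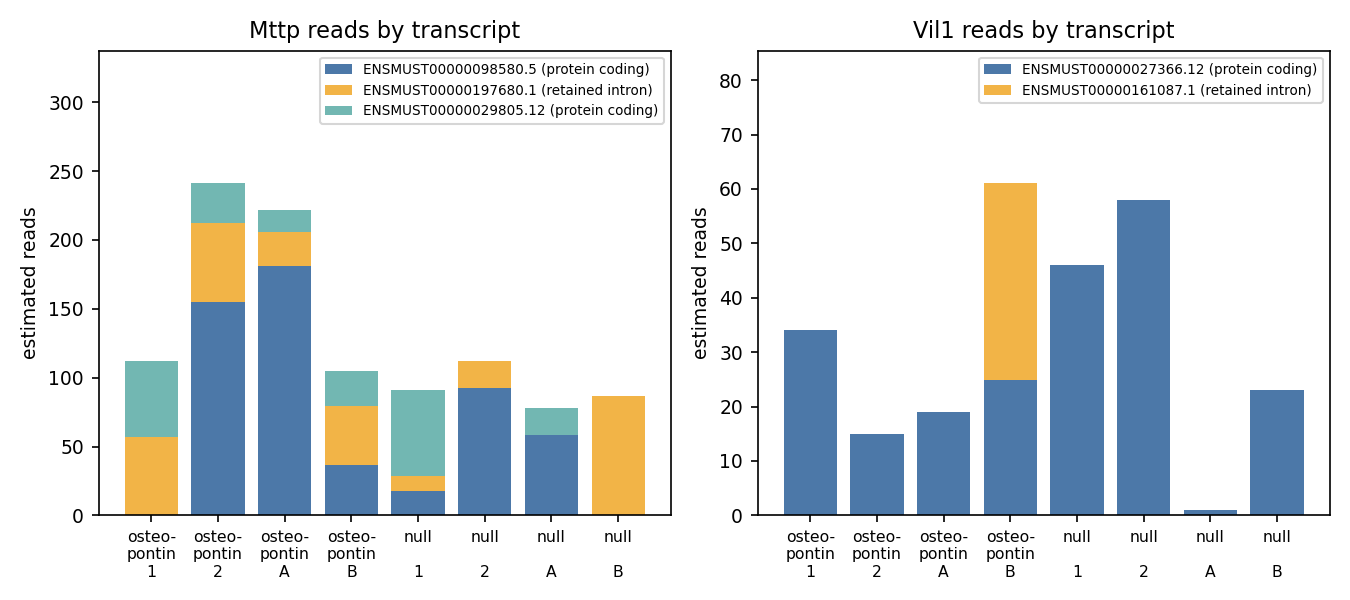
Estimated reads of Mttp (left) and Vil1 (right) per library, stacked by transcript, osteopontin libraries to the left of null libraries. Mttp is highest in osteopontin libraries 2 and A, with 241 and 222 reads; for Vil1, 36.2 of the 61 reads in osteopontin library B are on a retained-intron transcript that has no reads in the other libraries.

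The brush border genes were scarce. Vil1 encodes villin, which bundles the actin of the microvilli. It had 34, 15, 19 and 61 reads in osteopontin libraries 1, 2, A and B, against 46, 58, 1 and 23 in the null libraries of those names. The groups overlapped throughout, and null library B was among the lower libraries. In osteopontin library B, 36.2 of the 61 reads were assigned to a retained-intron transcript of 408 bases (ENSMUST00000161087.1), and because it is so short it supplied 5.0 of the 5.26 TPM there. The fitted log2 fold change was 0.12 (SE 1.26, 95% interval -2.55 to 2.80), -0.41 over protein-coding transcripts and -0.75 without both B libraries. It was 2.4 with effective lengths as an offset, 0.80 with limma voom and 0.91 by limma on log2 of TPM plus 0.1, with no call in any of these. Vil1 overlaps Usp37 on the other strand.

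Lct encodes lactase, the brush border enzyme that splits milk sugar. It had 31, 115, 76 and 278 reads in osteopontin libraries 1, 2, A and B, against 57, 69, 21 and 87 in null libraries 1, 2, A and B. Osteopontin library B was the highest, at 5.65 CPM, and the other 7 lay between 0.293 and 1.69 CPM, with the groups overlapping. The fitted log2 fold change was 1.29 (SE 0.78, 95% interval -0.36 to 2.95), with an unadjusted p of 0.117 and an adjusted p of 0.9999 in edgeR's quasi-likelihood test with Benjamini-Hochberg adjustment. Without osteopontin library B it was 0.30.

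Alpi and Sis were too scarce to enter the test. Alpi, the intestinal alkaline phosphatase of the brush border, had 20 reads in osteopontin library B and 25 in null library B, or 0.406 and 0.383 CPM, and was listed at 0 in the other 6 libraries. Sis, the sucrase-isomaltase that digests sucrose and starch fragments, had 7, 0, 2 and 0 reads in osteopontin libraries 1, 2, A and B, against 0, 0, 0 and 12 in the null libraries of those names. All 21 reads of Sis were on 2 retained-intron transcripts, and its protein-coding transcripts were listed at 0 in every library. In a library at 0, a count of 3 reads is the upper limit that counting error allows; reads carried no molecular identifiers that the files show, so this limit and the intervals on shares cover counting error only.

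Epcam was the most abundant of the 10 and the steadiest between libraries. It had 2695, 2862, 2396 and 2379 reads in osteopontin libraries 1, 2, A and B, against 2411, 2773, 2743 and 2472 in null libraries 1, 2, A and B. Its level was 42.4 ± 4.39 CPM with osteopontin and 40.4 ± 2.75 CPM without (SD, n = 4 each). The highest library, osteopontin B at 48.3 CPM, was 1.28-fold above the lowest, and 14.9% of the tested genes had a smaller ratio of highest to lowest; the median over tested genes was 2.14. The fitted log2 fold change was 0.07 (SE 0.11, 95% interval -0.17 to 0.30), the tightest interval of the 8 tested genes, and without both B libraries it was -0.03. Per 1000 reads of Ptprc it had 18.4 to 23.3 reads with osteopontin and 18.7 to 22.4 without. Null library B, where Fabp2 and Apoa4 were at their highest, had 37.9 CPM of Epcam, at the lower end of the 8 libraries. Because its reads outnumber those of the other 9 genes in every library, those are summed below without it, a choice made with the values in view.

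**Figure D3:**
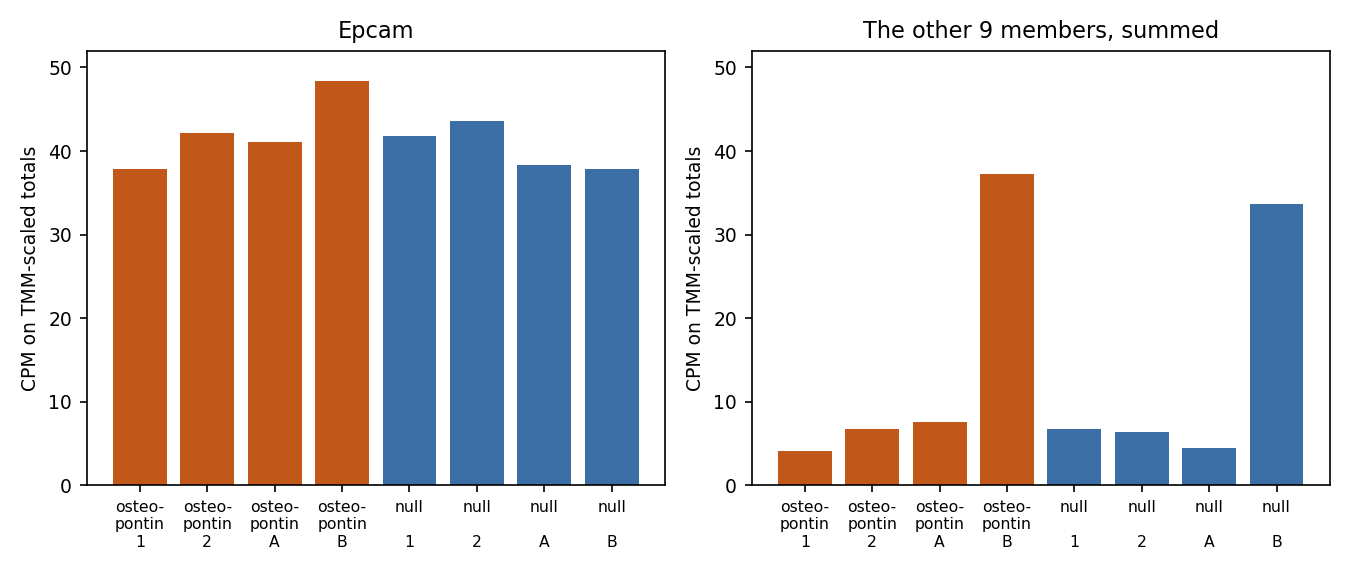
CPM of Epcam (left) and of the other 9 genes summed (right) in each library, osteopontin in orange to the left of null in blue, on the same scale from 0. Epcam lies between 37.9 and 48.3 CPM throughout, while the sum of the other 9 is 37.2 CPM in osteopontin library B and 33.6 CPM in null library B, and 4.10 to 7.60 CPM in the other 6 libraries.

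The 9 genes without Epcam summed to 4.10, 6.71, 7.60 and 37.2 CPM in osteopontin libraries 1, 2, A and B, against 6.69, 6.36, 4.49 and 33.6 CPM in null libraries 1, 2, A and B. The sums of the B libraries of both groups were the highest, and the remaining libraries of the groups overlapped. Fabp1, Fabp2, Apoa1 and Apoa4 carried most of the B sums, with 27.8 CPM in osteopontin library B and 30.0 CPM in null library B, beside 1.25 to 2.13 CPM in the other osteopontin libraries and 2.61 to 3.33 CPM in the other null libraries. How often other genes part in this way without the B libraries was not counted. The sum of Vil1, Lct, Mttp, Alpi and Sis was 9.43 CPM in osteopontin library B and 3.59 CPM in null library B, beside 2.58 to 5.47 CPM in the other osteopontin libraries and 1.396 to 3.76 CPM in the other null libraries, so these 5 genes together were not high in null library B. The group means were 13.9 ± 15.6 CPM with osteopontin and 12.8 ± 13.9 CPM without (SD, n = 4 each). Epcam accordingly made up 56.5% of the reads of the 10 genes in osteopontin library B (Wilson 95% interval 55.0% to 58.0%) and 53.0% in null library B (51.6% to 54.4%), and 84.4% to 90.2% in the other 6 libraries. Osteopontin library B was the shallowest of the 8, at 49108969 estimated reads, and null library B held 65554396.

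The share of a gene's reads that fell in the B libraries separated the members. It was 100% for Alpi (45 of 45 reads), 95.1% for Apoa4, 85.2% for Apoa1, 82.0% for Fabp1 and 68.9% for Fabp2. It was 57.1% for Sis (12 of 21 reads, all 12 in null library B), 49.7% for Lct, 32.7% for Vil1, 23.4% for Epcam and 18.3% for Mttp, beside a median of 22.5% over the tested genes. Both B libraries were the 2 highest of the 8 for 5 of the 10 genes, namely Fabp1, Fabp2, Apoa1, Apoa4 and Alpi, and for 8.20% of all tested genes. Alpi is not among the tested genes, and counts of this kind in the lists below also include genes under the count filter. This comparison was made with the values in view, and the labels do not say what the name B stands for.

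Across the comparison of osteopontin with null, 8 of the 10 genes passed the filter on low counts. Fitted values were higher for 6 (Fabp1, Apoa1, Vil1, Lct, Mttp and Epcam) and lower for 2 (Fabp2 and Apoa4), with a median log2 fold change of 0.10 beside 0.00041 over all tested genes. The 8 genes each overlapped between the groups, while 3.47% of all tested genes had groups without overlap. None had an unadjusted p under 0.05, which 732 of 18631 tested genes had (3.93%), and the smallest adjusted p over all genes was 0.470. In DESeq2, which called 12 genes higher and 29 lower, none of the 8 genes was called, and Fabp1, Fabp2, Apoa1 and Apoa4 received no adjusted p.

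**Figure D4:**
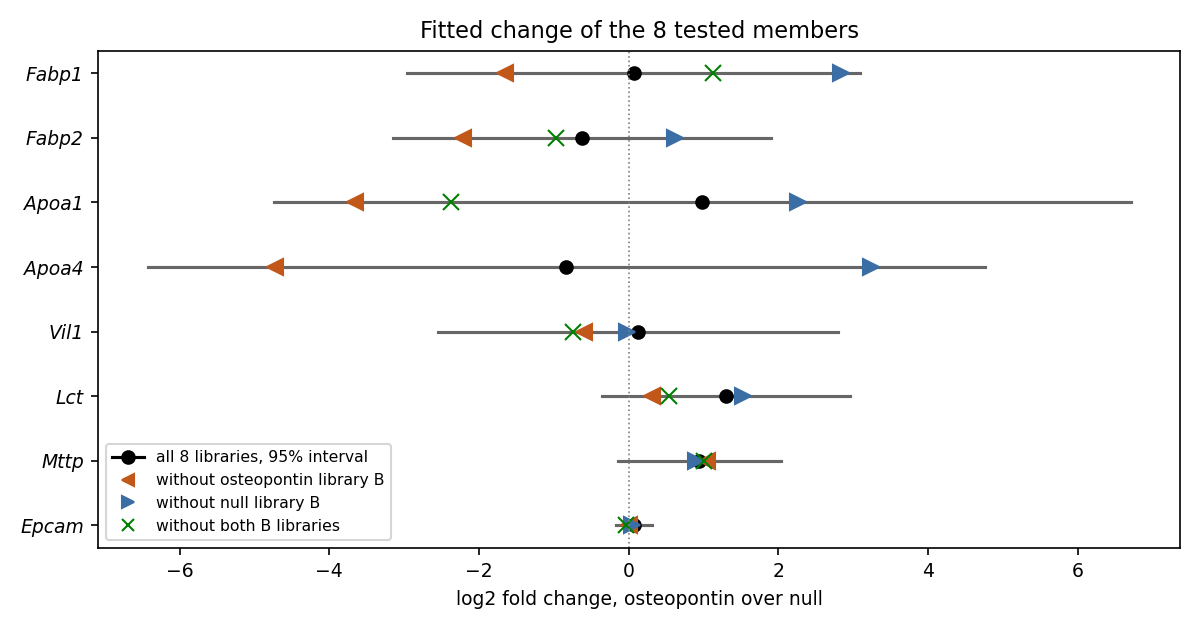
Fitted log2 fold change of the 8 tested genes, osteopontin over null, as black points with 95% intervals, and the same value without osteopontin library B, without null library B and without both; Apoa4 was under the count filter without both. Leaving out the B library of one group moves Fabp1, Fabp2, Apoa1, Apoa4, Vil1 and, by a small step, Epcam across 0, from -4.73 to 3.24 for Apoa4, whereas Mttp stays between 0.75 and 1.13 whichever library is left out.

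The proximal promoters of the genes were read for short motifs of factors known to act in the intestine, in the 250 bases before the RefSeq start (GRCm38.p6), on both strands. For HNF4, a nuclear receptor of enterocytes, the letters searched were CAAAGTNCA. For the caudal-type homeobox factors of the intestine (CDX) they were TTTATG, and for the zinc finger factors of the GATA family they were AGATAA. The palindromic consensus of the homeobox factor HNF1 was searched as well. Of general promoter elements, the search included TATAAA, the core of the box that places the start, and the GC box to which Sp factors bind, written GGGCGG. The HNF4-type letters were found in 3 of the 10 promoters, those of Fabp2, Apoa4 and Alpi, and in 1.19% of 32851 mouse promoters of the same length. All 3 were among the 5 genes highest in both B libraries, and the others of the 5, Fabp1 and Apoa1, had no HNF4-type match. That group of 5 came from the same levels, and a link between the letters and the levels was not tested. The 3 promoters are shown here with that of Epcam, the steadiest gene, which holds a GC box and a CDX-type match. Capitals mark the matches.
Fabp2: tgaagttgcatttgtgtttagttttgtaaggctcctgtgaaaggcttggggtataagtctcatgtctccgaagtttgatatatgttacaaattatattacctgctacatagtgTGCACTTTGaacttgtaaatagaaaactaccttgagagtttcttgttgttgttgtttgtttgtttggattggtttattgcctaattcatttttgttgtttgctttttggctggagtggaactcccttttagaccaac
Apoa4: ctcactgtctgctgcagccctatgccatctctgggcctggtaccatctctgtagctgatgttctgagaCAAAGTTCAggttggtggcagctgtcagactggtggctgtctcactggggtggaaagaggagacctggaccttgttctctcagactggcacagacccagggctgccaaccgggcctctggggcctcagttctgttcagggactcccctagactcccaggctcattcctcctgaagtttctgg
Alpi: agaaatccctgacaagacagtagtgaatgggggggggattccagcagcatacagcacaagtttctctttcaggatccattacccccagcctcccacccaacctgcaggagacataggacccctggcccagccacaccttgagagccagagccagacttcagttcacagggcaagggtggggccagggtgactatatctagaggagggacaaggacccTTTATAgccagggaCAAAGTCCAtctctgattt
Epcam: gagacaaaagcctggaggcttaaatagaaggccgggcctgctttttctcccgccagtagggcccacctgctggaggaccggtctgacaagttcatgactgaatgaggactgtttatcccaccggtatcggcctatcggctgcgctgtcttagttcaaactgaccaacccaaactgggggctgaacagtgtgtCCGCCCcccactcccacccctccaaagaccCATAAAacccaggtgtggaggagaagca

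The Fabp2 window is chr3:122894822-122895071 on the + strand, and its match begins 137 bases before the start and reads on the minus strand. The Apoa4 window is chr9:46240594-46240843 on the + strand, with the match 182 bases before the RefSeq start. The quantified Apoa4 transcript starts inside this window, at chr9:46240696, so the later part of the window lies within the span of that transcript. The match lies upstream of both starts. The windows of Fabp1, Apoa1 and Vil1 likewise end past the start of the gene. In the Alpi window, chr1:87101607-87101856 on the minus strand, the HNF4-type match begins 19 bases before the start and a reversed TATA box 33 bases before it. The Epcam window is chr17:87635729-87635978 on the + strand. CDX-type letters were in 4 of the 10 promoters (Fabp1, Lct, Sis and Epcam; 10.8% of all promoters), TATA box letters in 3 (Fabp1, Alpi and Sis; 12.4%), GC box letters in 2 (Vil1 and Epcam; 32.7%) and GATA-type letters in 1 (Lct; 9.99%), and the HNF1 consensus in 0 of the 10 (0.00913%). The motifs were chosen with the sequences and the levels in view, and a match describes letters and not a bound site. Hnf4a itself, which encodes the HNF4-alpha factor, had 99 reads in osteopontin library B and was listed at 0 in osteopontin libraries 1, 2 and A, against 20, 0, 0 and 63 reads in null libraries 1, 2, A and B. Its part in the levels of the 10 genes was not tested.

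Other genes of fat absorption included steady ones and ones that followed the B libraries, which were the 2 highest for 3 of the 18. Of these 18 genes, 15 had a read, 12 were tested, 3 were fitted higher and 9 lower, and none was called, with a median log2 fold change of -0.15. The 3 with the highest mean level were Dgat1, which makes triglyceride, at 124.0 ± 8.51 TPM with osteopontin and 119.7 ± 17.0 TPM without; Sar1b, a GTPase of chylomicron export, at 38.3 ± 7.64 and 43.5 ± 9.67 TPM; and Acsl5, which activates fatty acids, at 32.1 ± 3.46 and 43.9 ± 10.1 TPM (SD, n = 4 each). They were present in every library, and Sar1b was itself highest in the B libraries, at 31.8 CPM in osteopontin library B and 40.3 CPM in null library B, beside 22.1 to 29.8 CPM in the other 6. Rbp2, the intestinal retinol carrier and a relative of Fabp2, had 15, 65, 0 and 218 reads in osteopontin libraries 1, 2, A and B, against 34, 79, 0 and 441 in the null libraries of those names. Cd36, a fatty acid receptor that other cell types also express, had 10.4, 6.68, 4.46 and 30.4 CPM in the osteopontin libraries, against 5.93, 38.9, 6.73 and 36.1 CPM in the null libraries, so that null library 2 was high as well.

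Brush border genes beyond the 10 were largely under the count filter. Of 26 listed, 23 had a read, 11 were tested, 5 were fitted higher and 6 lower, and none was called, with a median log2 fold change of -0.04. The B libraries were the 2 highest for 1 of the 26, tested or not, beside 8.20% of all tested genes. Dpp4, a peptidase also known as CD26 on T cells, led at 155 ± 10.9 TPM with osteopontin and 142 ± 28.6 TPM without. Next were Slc6a19, a neutral amino acid transporter, at 10.3 ± 0.983 and 11.3 ± 3.82 TPM, and Slc3a1, a subunit of a cystine transporter, at 5.65 ± 0.648 and 3.99 ± 0.846 TPM (SD, n = 4 each). Treh, Mep1a and Slc5a1, which encode trehalase, a meprin subunit and the sodium-glucose transporter of the brush border, were listed at 0 in all 8 libraries.

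Structural genes of epithelia also included steady ones and ones that followed the B libraries. Of 23 listed, 22 had a read, 19 were tested, 8 were fitted higher and 11 lower, and none was called, with a median log2 fold change of -0.02. Cdh1, which encodes E-cadherin, the partner of the CD103 integrin on intraepithelial T cells, stood at 97.2 ± 10.4 TPM with osteopontin and 88.9 ± 10.3 TPM without. Spint2, a protease inhibitor, stood at 68.8 ± 2.52 and 69.5 ± 2.29 TPM, and Tjp3, a tight junction protein, at 31.1 ± 6.92 and 33.9 ± 10.7 TPM (SD, n = 4 each). Cdh1 and Spint2 varied little between libraries, with highest levels 1.30-fold and 1.15-fold above the lowest. Tjp3 was highest in the B libraries, at 47.9 CPM in osteopontin library B and 48.8 CPM in null library B, beside 30.3 to 43.9 CPM in the other 6. Krt8, a keratin of simple epithelia, had 0.253, 0.633, 0.566 and 8.92 CPM in osteopontin libraries 1, 2, A and B, against 1.59, 0.943, 1.17 and 10.4 CPM in the null libraries of those names, and so followed the B libraries. Krt19 and Cldn4 did the same, at 3.31 and 1.26 CPM in osteopontin library B and 1.56 and 2.61 CPM in null library B, and at or under 0.312 CPM in the other 6. Both B libraries were the 2 highest for 8 of these 23 genes.

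Among intestinal transcription factors the B libraries were the 2 highest for 2 of 13 genes, and among antimicrobial genes for 2 of 10. The share over all tested genes was 8.20%, whereas these counts include genes under the count filter. Of 13 transcription factors, 12 had a read, 3 were tested and all 3 were fitted lower, with no call and a median log2 fold change of -1.22; Klf4 led at 2.04 ± 1.88 TPM with osteopontin and 6.94 ± 1.08 TPM without, followed by Elf3 at 0.744 ± 1.24 and 0.393 ± 0.701 TPM and Gata4 at 0.481 ± 0.532 and 0.291 ± 0.321 TPM (SD, n = 4 each). Klf4, a factor of many cell types and also an early-response gene, was called lower in DESeq2 (log2 fold change -2.11, adjusted p 0.0229) and in edgeR without both B libraries (-2.96, adjusted p 0.0152). Those fits called 29 and 48 genes lower over all genes. Of 10 antimicrobial genes of the epithelium, 8 had a read and 3 were tested, with 2 fitted higher, 1 lower and none called, and a median log2 fold change of 0.28. Reg3b, a secreted bactericidal lectin, had 5, 1, 33 and 122 reads in osteopontin libraries 1, 2, A and B, against 28, 1, 0 and 485 in the null libraries of those names. Reg3g stood at 1.80 ± 2.13 TPM with osteopontin and 0.956 ± 0.744 TPM without, and Reg1 at 0.738 ± 0.534 and 0.581 ± 0.769 TPM (SD, n = 4 each).

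Markers of gut regions were low in all libraries. The B libraries were the 2 highest for 1 of 6 proximal, 2 of 6 distal and 0 of 6 colonic genes, tested or not. Over all tested genes the share was 8.20%. Of 6 genes of the proximal small intestine 4 were tested (2 fitted higher, 2 lower, median log2 fold change 0.02), led by Ada at 3.59 ± 0.592 TPM with osteopontin and 4.2 ± 0.878 TPM without. Of 6 distal ones 2 were tested (1 higher, 1 lower, median 0.44), led by Fabp6, the ileal bile acid-binding protein, at 2.26 ± 3.89 and 2.22 ± 3.25 TPM, and of 6 colonic ones 1 was tested (fitted higher, at 1.14; without both B libraries -0.68), led by Car4 at 0.574 ± 1.15 and 0.802 ± 0.883 TPM (SD, n = 4 each). None was called.

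Transcripts of other cells of the mucosa moved with the B libraries in part, and their part in the results above was not tested. The sum of 8 goblet cell genes was 5.73, 7.08, 7.54 and 12.3 CPM in osteopontin libraries 1, 2, A and B, against 4.56, 5.14, 6.38 and 88.9 CPM in the null libraries of those names. In null library B, Fcgbp, a protein of mucus, accounted for 59.5 CPM and Clca1, another mucus protein, for 8.34 CPM. In osteopontin library B they stood at 0.183 and 0.0406 CPM. Tff3 stood at 11.1 CPM in null library B and 0.610 CPM in osteopontin library B. Zg16, the goblet gene with the highest mean TPM, went the other way. It stood at 2.62 CPM in null library B, its lowest, and at 7.64 CPM in osteopontin library B, its highest. The B libraries thus had like sums of the 9 genes and unlike sums of goblet cell genes; single genes of the 9 also differed between them, such as Lct at 5.65 CPM in osteopontin library B and 1.33 CPM in null library B. Of the 8 goblet genes 4 were tested, with 1 fitted higher, 3 lower and none called (median log2 fold change -2.0), and Spink4 and Spdef were listed at 0 throughout. Of 8 Paneth cell genes none was tested, and their sum was 0.294 to 1.36 CPM with osteopontin and 0 to 3.71 CPM without, highest in null library B. Of 9 tuft and enteroendocrine genes 4 were tested (2 fitted higher, 2 lower, median 0.15), with sums of 0.309 to 2.32 CPM with osteopontin and 0.767 to 2.29 CPM without. Of 8 crypt genes 4 were tested (1 higher, 3 lower, median -0.10), with sums of 53.6 to 71.2 CPM with osteopontin and 49.5 to 81.0 CPM without. The B libraries were the 2 highest for 0 of these 8. Rnf43, Axin2 and Slc12a2 made up nearly all of each crypt sum. Over all libraries they stood at 14.2 to 26.4, 19.65 to 29.75 and 12.8 to 19.2 CPM. Olfm4, a stem cell marker, was listed at 0 throughout.

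**Figure D5:**
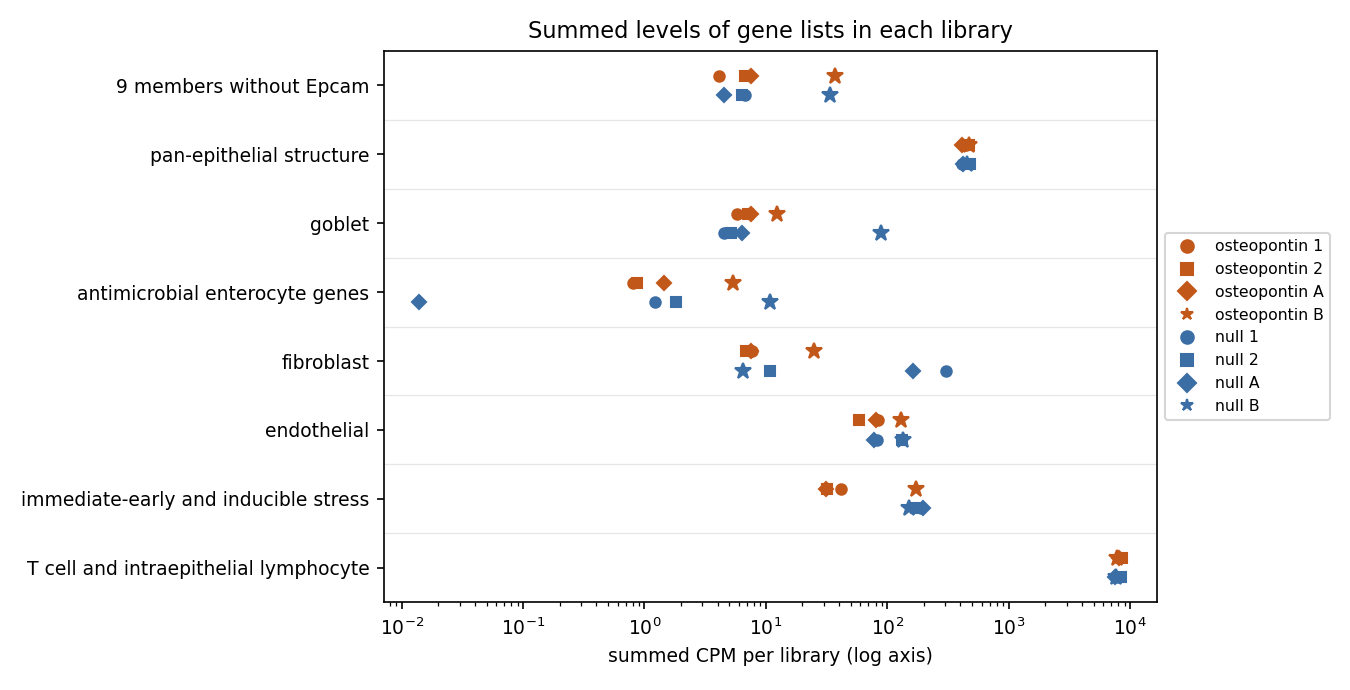
Summed CPM of 8 gene sets in each library (log axis), osteopontin in orange above null in blue, with one symbol per library name. The stars of both B libraries are high for the 9 genes and for the antimicrobial genes; for goblet genes the star of null library B is high at 88.9 CPM, and fibroblast genes are high in null libraries 1 and A.

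Stromal and stress transcripts divided the libraries along other lines. The sum of 7 fibroblast genes was 24.8 CPM in osteopontin library B and 6.88 to 7.64 CPM in the other osteopontin libraries, against 304 CPM in null library 1, 163 CPM in null library A, 10.8 CPM in null library 2 and 6.5 CPM in null library B; all 7 were fitted lower and none was called, with a median log2 fold change of -4.73. The sum of 7 endothelial genes was 131 CPM in osteopontin library B and 58.9 to 83.9 CPM in the other osteopontin libraries, against 132 CPM in null library 2, 135 CPM in null library B and 77.3 to 82.4 CPM in the other null libraries; 6 were tested, all fitted lower and none called (median -0.75). Most of each endothelial sum was Pecam1, at 56.9 to 85.0 CPM over all libraries. Cdh5 separated the libraries more widely, at 15.8 CPM in osteopontin library B, 16.4 CPM in null library 2 and 14.7 CPM in null library B. In the other libraries Cdh5 stood at 0.177 to 2.19 CPM. Null library 2, high in endothelial genes, was low in the 9 genes. The sum of 7 immediate-early and stress genes was 173.0 CPM in osteopontin library B and 31.3 to 41.8 CPM in the other osteopontin libraries, against 151 to 197 CPM in the null libraries; all 7 were fitted lower and none was called (median -1.60). Without osteopontin library B, 5 genes of the lists passed edgeR's quasi-likelihood test with Benjamini-Hochberg adjustment, all lower with osteopontin: Fos (log2 fold change -6.44, adjusted p 3.56e-05), Atf3 (-2.55, adjusted p 0.00537), Jun (-1.13, adjusted p 0.00597), Hspa1a (-5.41, adjusted p 0.0085) and Klf4 (-3.05, adjusted p 0.00618). Over all genes that fit called 2 higher and 35 lower. The library left out was the one that stood high in the stress sum, so these calls depended on its removal.

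Lists of blood cells differed in how they stood in the B libraries. Of 15 T cell genes, 6 were fitted higher and 9 lower (median log2 fold change -0.06), and both B libraries were the 2 highest for 3 of them; of 9 B and plasma cell genes 1 was higher and 8 lower (median -0.39), with sums of 3404 to 7441 CPM with osteopontin and 3059 to 8362 CPM without, lowest in the B library of each group. Of 9 macrophage and dendritic cell genes 8 were tested (4 higher, 4 lower, median -0.01), with sums of 86.9 to 197 CPM with osteopontin and 97.3 to 186 CPM without, again lowest in the B library of each group. Of 5 red cell genes 1 was tested, fitted lower at -1.83, with sums of 0 to 0.671 CPM with osteopontin and 0.251 to 1.98 CPM without, highest in the B library of each group. None of these genes was called.

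Genes other than the 10 were ranked by how closely their levels followed the mean pattern of the 10 genes over the 8 libraries. The measure was the root mean square difference of centred log2 CPM, over 11552 candidate genes, and its median was 1.17. Candidates had passed the count filter and had a mean of at least 1 CPM. Left out were genes with predicted names (Gm, Rik and RP), pseudogenes and antigen receptor segments. The closest was mt-Rnr1, the small ribosomal RNA of mitochondria, at 0.498. It had 267, 240, 275 and 1015 CPM in osteopontin libraries 1, 2, A and B, against 258, 241, 244 and 616 CPM in the null libraries of those names, so the B libraries were the highest. mt-Rnr2, the large mitochondrial ribosomal RNA, had 1775 CPM in osteopontin library B and 788 to 800 CPM in the other osteopontin libraries, against 1383 CPM in null library B and 645 to 720 CPM in the other null libraries. The next 7 were AC127556.5, Pde4c, Ttn, Rhpn2, Zfp960, Rab39 and Olfr804, with differences of 0.542 to 0.620 and mean levels of 1.26 to 2.62 CPM. Among the 10 genes themselves the difference was smallest for Alpi, at 0.599, and Fabp2, at 0.638, and largest for Apoa1, at 2.28. A flat pattern, the same level in all libraries, gave 1.15 and Epcam 1.11. This measure grows with the size of a gene's swings as well as with a different shape. The Pearson correlation with the pattern was 0.743 for Apoa1 and 0.947 for Apoa4, but 0.356 for Epcam and -0.105 for Mttp. The transcript share of mitochondrial ribosomal RNA was high where the sum of the 9 genes was high, and its part in their levels was not tested.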

How the data were processed

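RNA sequencing of 8 libraries was quantified by the submitters with Salmon, per the submitters' processing notes; the version of Salmon, its transcript set and the build are not stated in those sources. Per the file headers, the deposited tables give estimated counts, TPM and an effective length for each transcript. Transcript names and lengths of all 20 member transcripts equal those of GENCODE M21 (GRCm38), from which gene positions were read. Estimated counts were summed per gene and rounded. edgeR 4.0.16 (R 4.3.3) was run with filterByExpr (minimum count 10), TMM scaling and the robust two-sided quasi-likelihood test, group as the only term, and Benjamini-Hochberg adjustment over 18631 genes, with a threshold of 0.05; the code was tested on simulated data. Standard errors are the fold change over the square root of F. CPM values are on TMM-scaled totals. The deposited TPM values were summed per gene for levels. Alternatives used DESeq2 1.42.0, limma 3.58.1 (also on log2 of TPM plus 0.1 or 1), other scalings, no filter, a name block, protein-coding transcripts and left-out libraries; the effective lengths served as an offset. Promoters came from RefSeq tables (GRCm38.p6), with a match for 10 of 10 genes. Beside the 10 genes, the rule named the 3 highest genes of each list (for lists of other cell types, their sums are given), any called gene and the 8 genes nearest in pattern. Rbp2, Cd36, Apob, Krt8, Krt19, Cldn4, Hnf4a, Clca1, mt-Rnr2 and genes listed at 0 were named after their values were seen. Members, lists and alternatives were chosen with earlier results of these data known.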

Additional observations from a re-analysis of the deposited data

Results flagged for a closer look

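Within a group of 4 libraries, a library was marked where its gap to the nearest other library, over the whole range of the group, exceeded Dixon's 95% critical value. This occurred in 10 of 20 groups for the 10 genes and in 8 of 38 for the list sums, where chance gives about 1 in 20 for independent normal values, and the marked library was named B each time. Of the 8 tested genes 7 of 16 groups were marked, beside 7.60% of the groups of all tested genes. For Alpi, and for Sis in the null group, the other 3 libraries are at 0, so any reads in the remaining library set the mark. Fabp1 was marked in both groups (osteopontin B 3.27 CPM beside 0.118 to 0.532 in the other osteopontin libraries; null B 3.59 CPM beside 0.0140 to 0.346 in the other null libraries). The same held for Fabp2 (osteopontin B 10.3 CPM beside 0.871 to 1.56; null B 14.3 CPM beside 2.22 to 2.25), Apoa4 (osteopontin B 4.90 CPM beside 0.0343 to 0.162; null B 8.75 CPM beside 0 to 0.283) and Alpi (osteopontin B 0.406 CPM and null B 0.383 CPM, each beside 0). Apoa1 was marked in osteopontin library B (9.33 CPM beside 0 to 0.281) and Sis in null library B (0.184 CPM beside 0).

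Among list sums, the antimicrobial genes were marked in both groups (osteopontin B 5.32 CPM beside 0.800 to 1.44; null B 10.8 CPM beside 0.0140 to 1.82). Osteopontin library B was marked for the distal small intestine (2.82 CPM beside 0.353 to 0.744), the colon (2.76 CPM beside 0.0442 to 0.393), fibroblast genes (24.8 CPM beside 6.88 to 7.64) and stress genes (173.0 CPM beside 31.3 to 41.8). Null library B was marked for goblet genes (88.9 CPM beside 4.56 to 6.38) and Paneth genes (3.71 CPM beside 0 to 0.0279).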

How the results depend on the processing

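None of the 10 genes was called under any of 21 alternatives. Of 167 values of single genes 146 kept their direction and 21 reversed it, and the lowest adjusted p was 0.602. These values are of the 8 genes that passed the count filter, so Alpi and Sis have none among them. In DESeq2, Fabp1, Fabp2, Apoa1 and Apoa4 received no adjusted p, so they could not be called there. Leaving out 1 library gave log2 fold changes of -1.65 to 2.84 for Fabp1 (reversed without osteopontin B and without null 1, 2 or A: -1.65, -0.22, -0.32 and -0.34), -2.21 to 0.61 for Fabp2 (reversed without null B), -3.65 to 2.26 for Apoa1 (reversed without osteopontin B), -4.73 to 3.24 for Apoa4 (reversed without null B), -0.60 to 0.54 for Vil1 (reversed without osteopontin B, null A or null B: -0.60, -0.28 and -0.024), 0.30 to 1.64 for Lct, 0.75 to 1.13 for Mttp and -0.0026 to 0.12 for Epcam. Other reversals were Fabp1 at -0.80 and Vil1 at -0.17 without null libraries 1 and A; Apoa1 at -1.84 with limma voom, -0.77 and -0.059 on log2 of TPM plus 0.1 and plus 1; Vil1 at -0.41 over protein-coding transcripts; and Apoa1 at -2.38, Vil1 at -0.75 and Epcam at -0.031 without both B libraries, where Apoa4 was under the count filter and has no value. The replicate block gave no call; Apoa1 reversed to -1.38 under it. Same-named libraries deviated together by r of 0.0712, 0.0485, 0.0437 and 0.123 for names 1, 2, A and B, which is not over 0.1 for every name, so the names were not used to pair libraries; 7 of 8 libraries correlated best with their own name, a hint from the data and not from the design.

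Calls over all genes were 0 higher and 0 lower by edgeR (732 genes at an unadjusted p under 0.05). They were 3 higher (RP24-200D3.4, Ubn2, Ppp4r1l-ps) and 1 lower (Prelp) with no filter, 12 and 29 with DESeq2, 1 lower (Gm26115) on log2 of TPM plus 1, 1 higher and 48 lower without both B libraries, and 0 to 2 higher and 0 to 35 lower with 1 library left out, the most without osteopontin B. Genes of the other lists called were 4 with DESeq2 (Pdgfra, Dcn, Klf4, Col6a1), 7 without both B libraries (Fos, Atf3, Jun, Pdgfra, Klf4, Hspa1a, Egr1) and 0 to 5 with 1 library left out (Fos, Atf3, Jun, Klf4 and Hspa1a without osteopontin B). Genes at the rank that mean TPM gives were 4 of 10 by median TPM and 6 of 10 over protein-coding transcripts. The causes were not tested. The effective-length offset gave 2.4 for Vil1. Low read numbers limit Alpi, Sis, Apoa1, Apoa4, Fabp1 and Vil1 in most libraries.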
